A study of Mus musculus with 7 samples.

Results

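Oxidative phosphorylation genes were followed in proliferating C2C12 cells, a mouse myoblast line that can be switched to muscle differentiation. The members were all rows of the expression table with a name of the Ndufa, Ndufb, Ndufc, Ndufs or Ndufv type, of the Sdha to Sdhd, Uqcr, Cox4 to Cox8 or Atp5 type, or Cycs or Cyc1. The rule found 84 rows among 13376, which hold 35 genes of complex I, 4 of complex II, 9 of complex III, 17 of complex IV, 15 of complex V, the electron carrier gene Cycs, and 3 genes that share only the Atp5 name. The last are Atp5s and Atp5sl, whose products are not subunits, and the pseudogene Atp5l2-ps. Ndufa4 was counted with complex IV, where its protein is found. No value of Cox4i2 was analysed here.

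The groups were 2 libraries labelled lnc-31 siRNA and 2 labelled scrambled siRNA, all from proliferating cells of this line, with no other treatment named in the labels. Levels are FPKM, sequenced fragments scaled for transcript length and library size, from a stranded mRNA kit per the labels. The series also holds 1 RNA pull-down library with specific (ODD) probes to lnc-31 and 1 with lacZ probes, given as peak lists. Nothing in the labels gives separate cultures within a group, so p-values reflect only how these libraries vary, and that variation may be technical. Sequencing depth is unknown. FPKM summed over all rows ranged from 1515596 to 2466046 per library, and rows over 10000 FPKM took 61.9% to 76.0% of it.

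Oxidative phosphorylation passes electrons from NADH and succinate through complexes I and II to ubiquinone, through complex III to cytochrome c and through complex IV to oxygen, and complex V uses the proton gradient to make ATP. Most subunits are encoded in the nucleus and the catalytic core of several complexes in mitochondrial DNA. Complex IV has tissue isoforms: Cox6a2, Cox7a1 and Cox8b are the forms of heart and skeletal muscle, while Cox6a1, Cox7a2 and Cox8a are made in most tissues.

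The promoters of 4 genes are shown because the results turn on them: Cox8b rose, Cox7a1 is the muscle isoform whose groups overlapped, and Atp5k and Ndufb7 fell. Cox6a2, which also rose, had no promoter window and was not searched. The window of Atp5g1, which also fell, runs into the annotated span of the gene and is described without its letters. Each run is the 250 bases before the annotated start on the gene's strand, as RefSeq gives it on GRCm38.p6 (the files use mm10, the same assembly). Capitals mark matches, on either strand, to the letters CANNTG (the E-box, which MyoD family proteins bind), the NRF1 motif (GCGC, then any base, T and GCGC) or CCGGAAG (the core bound by ETS proteins such as GABPA). No 2 matches overlap in these runs.
Cox8b, chr7:140900447-140900696, minus strand: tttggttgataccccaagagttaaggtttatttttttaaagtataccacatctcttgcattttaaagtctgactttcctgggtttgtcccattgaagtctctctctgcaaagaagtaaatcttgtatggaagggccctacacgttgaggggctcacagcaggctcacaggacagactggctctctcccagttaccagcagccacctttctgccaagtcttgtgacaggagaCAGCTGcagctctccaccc
Cox7a1, chr7:30183921-30184170, plus strand: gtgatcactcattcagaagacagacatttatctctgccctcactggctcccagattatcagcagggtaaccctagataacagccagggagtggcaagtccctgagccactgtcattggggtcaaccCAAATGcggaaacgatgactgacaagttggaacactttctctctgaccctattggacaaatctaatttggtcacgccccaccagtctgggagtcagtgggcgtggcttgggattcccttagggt
Atp5k, chr5:108434400-108434649, minus strand: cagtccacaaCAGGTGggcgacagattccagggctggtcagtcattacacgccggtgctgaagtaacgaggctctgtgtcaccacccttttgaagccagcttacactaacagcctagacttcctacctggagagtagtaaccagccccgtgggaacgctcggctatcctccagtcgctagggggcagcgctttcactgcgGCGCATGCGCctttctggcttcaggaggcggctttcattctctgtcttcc
Ndufb7, chr8:83566508-83566757, plus strand: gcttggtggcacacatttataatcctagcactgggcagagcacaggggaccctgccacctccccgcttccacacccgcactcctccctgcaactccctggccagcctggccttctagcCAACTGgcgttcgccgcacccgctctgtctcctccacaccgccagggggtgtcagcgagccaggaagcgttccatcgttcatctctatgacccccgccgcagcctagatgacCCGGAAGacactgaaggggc

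The Cox8b run holds CAGCTG, 19 to 14 bases before the start. The Cox7a1 run holds CAAATG at 124 to 119 bases. The Atp5k run holds GCGCATGCGC at 50 to 41 bases and CAGGTG at 240 to 235 bases, and the Ndufb7 run holds CCGGAAG at 20 to 14 bases and CAACTG at 132 to 127 bases. The Atp5g1 window (chr11:96075632-96075881, minus strand) holds CAATTG and CACGTG, and neither the NRF1 nor the ETS letters. Counted from the window's end inside the gene, CAATTG lies at 94 to 89 bases and CACGTG at 44 to 39 bases. The annotated gene reaches 96075694, so these are not distances before its annotated start, and CACGTG lies within the gene. Promoter windows were matched for 70 of the 84 genes, 6 of them with more than 1 window. The NRF1 letters stood in 13 of 70 genes (18.6%), against 4.23% of 27025 mouse genes with a window of that length, and the ETS letters in 12 (17.1%), against 7.83%. CANNTG stood in 44 (62.9%), against 69.3%. The windows of the 70 genes had a median GC content of 56.2%, against 52.0% over all genes, and base composition was not matched. Of complex V, 4 of 14 matched genes held the NRF1 letters, of complex I 6 of 31, of complex II 2 of 3, of complex IV 1 of 14 and of complex III 0 of 5. A match describes letters only. Other searches found TCAAGGTCA (bound by ERR receptors) in Atp5g3 alone and the MEF2 motif (CTA, then any 4 bases, then TAG) in Cox5b alone, against 0.422% and 3.70% of all genes.

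The target, lnc-31, has no row of its own, so its knockdown could not be checked. The nearest reading is the row that names Mir31, the microRNA at the lnc-31 locus, together with an assembled transcript. It stood at 12.1 and 14.1 FPKM in the libraries labelled lnc-31 siRNA, against 13.4 and 15.6 FPKM with scrambled siRNA. The log2 fold change was -0.14 (limma, SE 0.099, adjusted p = 0.38), so this row was not called, and it does not show whether lnc-31 fell. The group is named below by its label. The cell type was checked with markers. Markers of differentiated muscle were represented by 10 rows of 12, and all 10 rose. Their summed levels were 462 and 482 FPKM in the libraries labelled lnc-31 siRNA and 251 and 284 FPKM with scrambled siRNA. Of 7 proliferating myoblast markers 3 rose and 2 fell, but with 1 library left out 1 was called higher when that library was lnc-31 siRNA 1, and none was called in the other fits. In the fit with no library left out, 12.4% of all tested rows were called. Fibroblast markers were represented by 4 rows of 7, and 3 of these rose (summed 661 and 635 FPKM, against 534 and 546). Not all of these fibroblast calls held with a library left out. Adipocyte markers were represented by 1 row of 5, at 2.98 and 2.87 FPKM, against 3.03 and 2.98, and blood, endothelial or epithelial markers by 2 rows of 6, with sums of 1.81 and 1.66 FPKM, against 1.59 and 1.80. In bulk RNA, more cells of a type and more RNA per cell cannot be told apart.

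Levels were high and spread widely within complexes. Mean FPKM over the 4 libraries had a median of 144 over the 84 genes, and 76 genes were at 10 FPKM or more in every library. The highest was Atp5b, the catalytic beta subunit of ATP synthase, at 1328 and 1448 FPKM in the libraries labelled lnc-31 siRNA and 1282 and 1216 FPKM with scrambled siRNA. The 12 genes with a mean of 500 FPKM or more came from complexes III, IV and V. The median level per gene was 110 FPKM in complex I (mean over libraries, 15.0 for Ndufa11 to 287 for Ndufb9), 126 in complex II (93.7 for Sdha to 196 for Sdhd), 281 in complex III (109 for Uqcrc2 to 545 for Uqcrh) and 382 in complex V (209 for Atp5j2 to 1318 for Atp5b). In complex IV it was 228, and the genes fell into abundant forms and forms near the floor of the table.

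**Figure D1:**
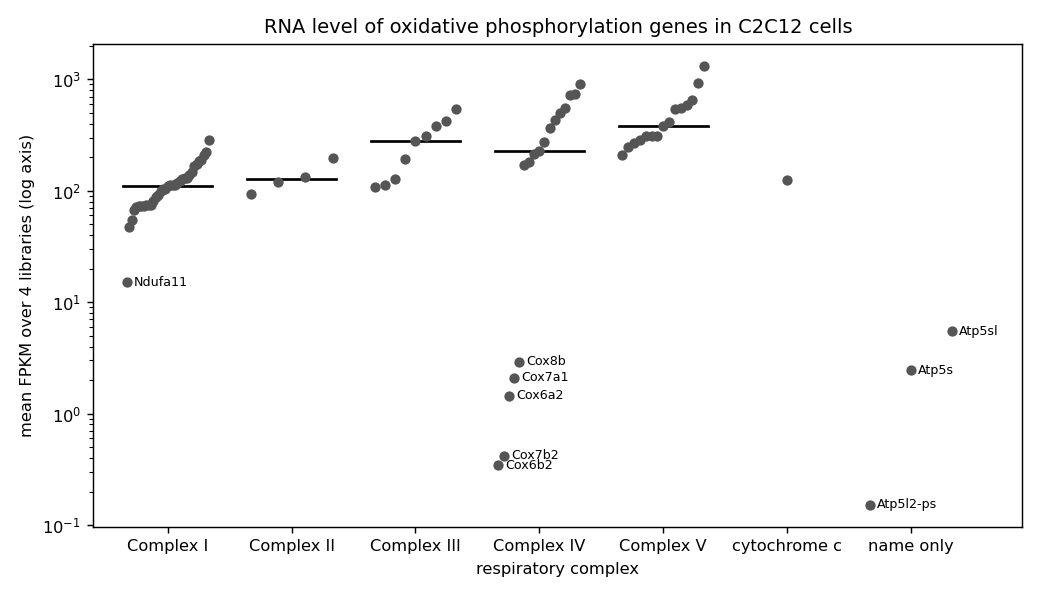
Mean FPKM over the 4 libraries (log axis) of each of the 84 genes, by complex; a point is a gene and the bar is the median of the complex. Complex IV splits into 12 genes at 170.5 FPKM or more and 5 isoforms under 5 FPKM (Cox8b, Cox7a1, Cox6a2, Cox7b2 and Cox6b2), and the lowest complex I gene is Ndufa11 at 15.0.

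Within complex I, the 7 core subunits, which among them carry the flavin and the iron-sulphur clusters, had levels of 67.4 to 112 FPKM (median 73.4), and the 28 accessory subunits 15.0 to 287 (median 115). All 8 genes under 10 FPKM in every library were isoforms or genes that are only named like subunits. These were Cox6a2, Cox7a1, Cox8b, the testis isoforms Cox6b2 and Cox7b2, Atp5s, Atp5sl and Atp5l2-ps. Cox6b2 (0.531 and 0.156 FPKM, against 0.156 and 0.537), Cox7b2 (0.609 and 0.0948, against 0.388 and 0.580) and Atp5l2-ps had means under 1 FPKM and were not tested. With lnc-31 siRNA, Atp5l2-ps is listed at 0 in each library, and it stood at 0.301 and 0.307 FPKM with scrambled siRNA. The table lists no row whose highest value is under 0.307 FPKM.

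Few of these genes differed between the groups. Rows that averaged at least 1 FPKM were compared on log2(FPKM + 1) with limma, with p-values adjusted over 11500 rows, and called at an adjusted p under 0.05. Of 81 tested genes 2 rose and 3 fell (6.17%), against 12.4% of all tested rows (5.64% called higher and 6.78% called lower). At an unadjusted p under 0.05 stood 10 of 81 (12.3%), against 30.9% of all rows. The groups did not overlap in 35 of 81 genes (43.2%), 29 of them lower and 6 higher under the lnc-31 siRNA label, against 60.2% of all rows. The median log2 fold change was -0.04, against -0.01 over all rows, and the median absolute value was 0.07, against 0.10. Of the 81, 59 lay within 0.1 of 0 and 7 beyond 0.2.

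The pair that rose were both muscle isoforms of complex IV. Cox6a2 (chromosome 7, 128205435 to 128206366) stood at 1.86 and 2.14 FPKM in the libraries labelled lnc-31 siRNA and at 0.964 and 0.853 FPKM with scrambled siRNA. The groups did not overlap, and the ratio of the means was 2.20 (log2 fold change 0.65, limma, SE 0.10, adjusted p = 0.019). Both scrambled siRNA values are under 1 FPKM, so this row passed the filter on the mean only through the group where it is high, and with no filter on low values its adjusted p was 0.020. Cox8b (chromosome 7, 140898942 to 140900446), which encodes subunit 8 of the heart and muscle form, stood at 3.94 and 3.36 FPKM, against 2.15 and 2.27 FPKM with scrambled siRNA. These groups also did not overlap, with a ratio of 1.65 (log2 fold change 0.53, limma, SE 0.093, adjusted p = 0.025). On the log2(FPKM + 1) scale changes at such levels are understated: with a pseudocount of 0.1 the log2 fold change was 1.06 for Cox6a2 and 0.70 for Cox8b. Cox7a1 did not pass, at 2.07 and 1.89 FPKM, against 2.63 and 1.84 FPKM with scrambled siRNA (log2 fold change -0.11, limma, SE 0.14, adjusted p = 0.63). Its scrambled siRNA libraries spanned the values of the other group.

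Both calls were lost with any 1 library left out, while the log2 fold changes were 0.58 to 0.72 for Cox6a2 and 0.44 to 0.62 for Cox8b. For Cox6a2 the adjusted p was then 0.052 when lnc-31 siRNA 1 was left out and 0.081 when lnc-31 siRNA 2 was, and 0.068 (library 1) or 0.076 (library 2) when a scrambled siRNA library was. For Cox8b the adjusted p was 0.090 (library 1) or 0.0502 (library 2) when a lnc-31 siRNA library was left out, and 0.10 (library 1) or 0.083 (library 2) when a scrambled siRNA library was. In those fits the median log2 fold change of the 10 tested markers of differentiated muscle was 0.77 to 0.89. The part of these markers in the Cox6a2 and Cox8b differences was not tested. The median of the 4 tested fibroblast markers was 0.20 to 0.25 in those fits.

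**Figure D2:**
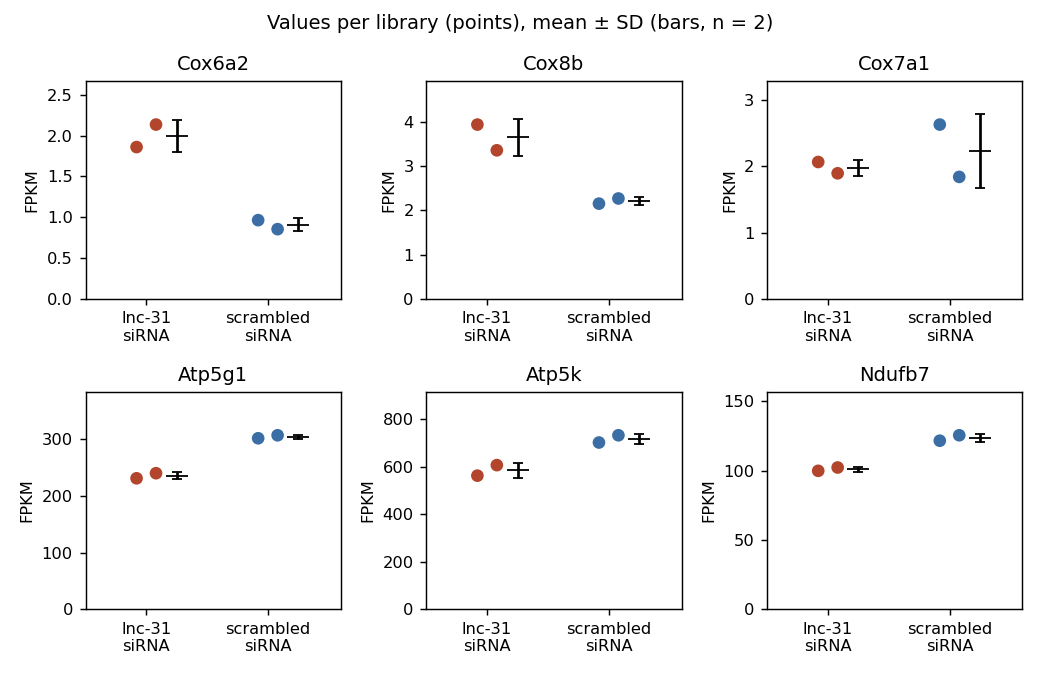
FPKM per library (points) and mean ± SD (n = 2 per group) for the 5 called genes and Cox7a1, each on its own axis from 0. Cox6a2 and Cox8b sit higher in the pair labelled lnc-31 siRNA, Atp5g1, Atp5k and Ndufb7 sit lower in both, and the groups of Cox7a1 overlap.

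The partner isoforms were abundant and did not pass the test. Cox6a1 was at 365 and 401 FPKM, against 368 and 343 FPKM with scrambled siRNA (log2 fold change 0.11, SE 0.064). Cox8a was at 751 and 806 FPKM, against 752 and 647 FPKM (0.16, SE 0.085). Cox7a2 was at 259 and 294 FPKM, against 262 and 287 FPKM (0.01, SE 0.078). The muscle forms were therefore a small part of each pair in every library. Cox6a2 made up 0.518% ± 0.016 of the summed FPKM of Cox6a1 and Cox6a2 in the libraries labelled lnc-31 siRNA and 0.255% ± 0.0093 with scrambled siRNA (SD, n = 2 each). Cox8b made up 0.468% ± 0.076 of Cox8a and Cox8b, against 0.317% ± 0.045. Cox7a1 made up 0.715% ± 0.11 of Cox7a1 and Cox7a2, against 0.816% ± 0.25, with overlapping groups. Cox6b2 made up 0.0705% ± 0.057 of Cox6b1 and Cox6b2, against 0.0677% ± 0.052. With 2 libraries against 2 an exact permutation test of a share cannot go below p = 0.33, so none was run.

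**Figure D3:**
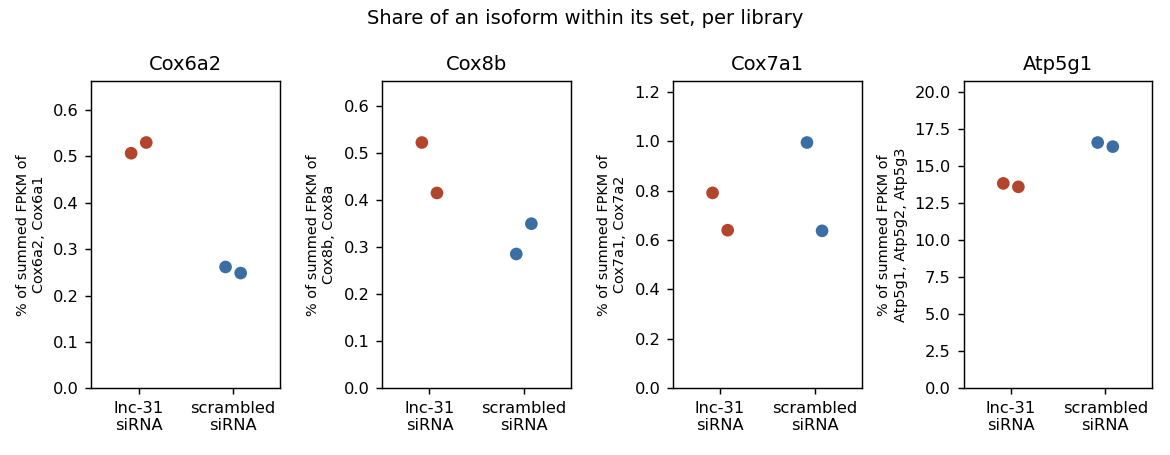
Share of an isoform in the summed FPKM of its set, in percent, for each library (points), on axes from 0. The Cox6a2 and Cox8b shares are higher and the Atp5g1 shares lower with lnc-31 siRNA than with scrambled siRNA, and the Cox7a1 shares overlap.

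The remaining complex IV genes did not pass. Cox5a, which lies on the matrix side of the enzyme, had the third largest log2 fold change of the complex (0.23, limma, SE 0.11, adjusted p = 0.22). It stood at 219 and 276 FPKM, against 216 and 202 FPKM with scrambled siRNA, so lnc-31 siRNA 2 was high and the other library of its group lay near the scrambled siRNA libraries. Without lnc-31 siRNA 1 it was called higher (log2 fold change 0.40, limma adjusted p = 0.039). Cox6c was the most abundant gene of the complex at 875 and 960.4 FPKM, against 859 and 957 FPKM (log2 fold change 0.02). Cox4i1, the regulatory subunit that can bind ATP, was at 541 and 575 FPKM, against 537 and 566 FPKM (0.02), and Cox6b1 at 479 and 513 FPKM, against 507 and 513 FPKM (-0.04). Over the 15 tested genes of complex IV 10 log2 fold changes were above 0 and 5 below. Their median was 0.02, and its sign turned with 1 library left out: -0.03 when lnc-31 siRNA 2 was omitted, -0.02 when scrambled siRNA 1 was, 0.08 when lnc-31 siRNA 1 was and 0.05 when scrambled siRNA 2 was.

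In complex V 2 of 15 genes fell, beside 6.78% of all tested rows called lower. Atp5g1 (chromosome 11, 96072793 to 96075694) encodes subunit c, the ring that turns in the membrane. It stood at 231 and 239.9 FPKM in the libraries labelled lnc-31 siRNA and at 301 and 307 FPKM with scrambled siRNA. The groups were far apart relative to their spread, with a ratio of 0.774 and the smallest adjusted p of all members (log2 fold change -0.37, limma, SE 0.043, adjusted p = 0.00999). It was the only member whose call held when lnc-31 siRNA 1 (adjusted p = 0.040) or lnc-31 siRNA 2 (0.033) was left out, and it was lost without scrambled siRNA 1 (0.064) and without scrambled siRNA 2 (0.068). Atp5g2 and Atp5g3 are separate genes for the same mature subunit. Atp5g2 was at 552 and 613 FPKM, against 588 and 603 FPKM (log2 fold change -0.03, SE 0.064), and Atp5g3 at 884 and 908 FPKM, against 924 and 967 FPKM (-0.08, SE 0.052). Neither passed. Atp5g1 made up 13.7% ± 0.16 of the summed FPKM of the 3 genes, against 16.5% ± 0.20 with scrambled siRNA, a difference of -2.74 percentage points. How reads shared by near-identical stretches of the 3 genes, or by processed pseudogenes, were assigned is not stated in the labels.

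Atp5k (chromosome 5, 108433246 to 108434399), which encodes the small membrane subunit e that takes part in dimers of the enzyme, stood at 563 and 607 FPKM, against 702 and 732 FPKM with scrambled siRNA. The groups did not overlap (ratio 0.815, log2 fold change -0.29, limma, SE 0.058, adjusted p = 0.033). The call was lost with any library left out (log2 fold changes -0.35 to -0.24), at an adjusted p of 0.11 (library 1) or 0.059 (library 2) for those labelled lnc-31 siRNA and 0.11 (library 1) or 0.15 (library 2) for scrambled siRNA. Atp5c1, the central stalk subunit gamma, came next at 290.4 and 296 FPKM, against 318 and 345 FPKM, and did not pass (log2 fold change -0.17, limma, SE 0.053, adjusted p = 0.092). Atp5b had the highest value of the complex, 0.15 (SE 0.067, limma adjusted p = 0.196), and its groups did not overlap. The groups did not overlap in 9 of the 15 genes (60%), against 60.2% of all rows. Over complex V 13 of 15 log2 fold changes were below 0 (median -0.07), and all 10 genes outside the catalytic F1 part were below 0 (-0.37 to -0.02), beside 51.8% of all tested rows below 0. The median of complex V was -0.11 with scrambled siRNA 1 left out and -0.03 with scrambled siRNA 2 left out. The summed level of the complex was 6967 and 7357 FPKM, against 7343 and 7546 FPKM with scrambled siRNA.

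In complex I 1 of 35 genes fell, beside 6.78% of all tested rows called lower. Ndufb7 (chromosome 8, 83566758 to 83571623), an accessory subunit of the membrane arm on the side of the intermembrane space, stood at 99.8 and 102 FPKM in the libraries labelled lnc-31 siRNA and at 122 and 125 FPKM with scrambled siRNA. The groups did not overlap (ratio 0.818, log2 fold change -0.29, limma, SE 0.041, adjusted p = 0.016). This call too was lost with any library left out (log2 fold changes -0.31 to -0.26), at an adjusted p of 0.061 (library 1) or 0.052 (library 2) for those labelled lnc-31 siRNA and 0.070 (library 1) or 0.086 (library 2) for scrambled siRNA. Ndufb10, another membrane arm subunit, was close to the threshold at 113 and 109 FPKM, against 123 and 127 FPKM (log2 fold change -0.17, limma, SE 0.042, adjusted p = 0.057). Ndufc2 was at 119.5 and 114 FPKM, against 121 and 138 FPKM (-0.15, SE 0.071). The most abundant genes of the complex did not pass, with Ndufb9 at 281 and 287 FPKM, against 283 and 298 FPKM (-0.03, SE 0.046), and Ndufa7 at 217 and 224 FPKM, against 215 and 234 FPKM (-0.02, SE 0.055).

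All 10 Ndufb genes had log2 fold changes below 0 (-0.29 to -0.02, median -0.10). Of the 12 Ndufa genes of complex I 9 were below 0 (median -0.04), and of the 7 core subunits 6 (median -0.08, with none called). Over the 35 genes 28 were below 0 and 7 above, with a median of -0.06, and 51.8% of all tested rows were below 0. The groups did not overlap in 18 of the 35 (51.4%), against 60.2% of all rows. These small shifts stand beside a median of -0.02 over the tested rows that averaged at least 50 FPKM. The median of the complex without each library in turn ran from -0.10 (without scrambled siRNA 1) to -0.01 (without scrambled siRNA 2).

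**Figure D4:**
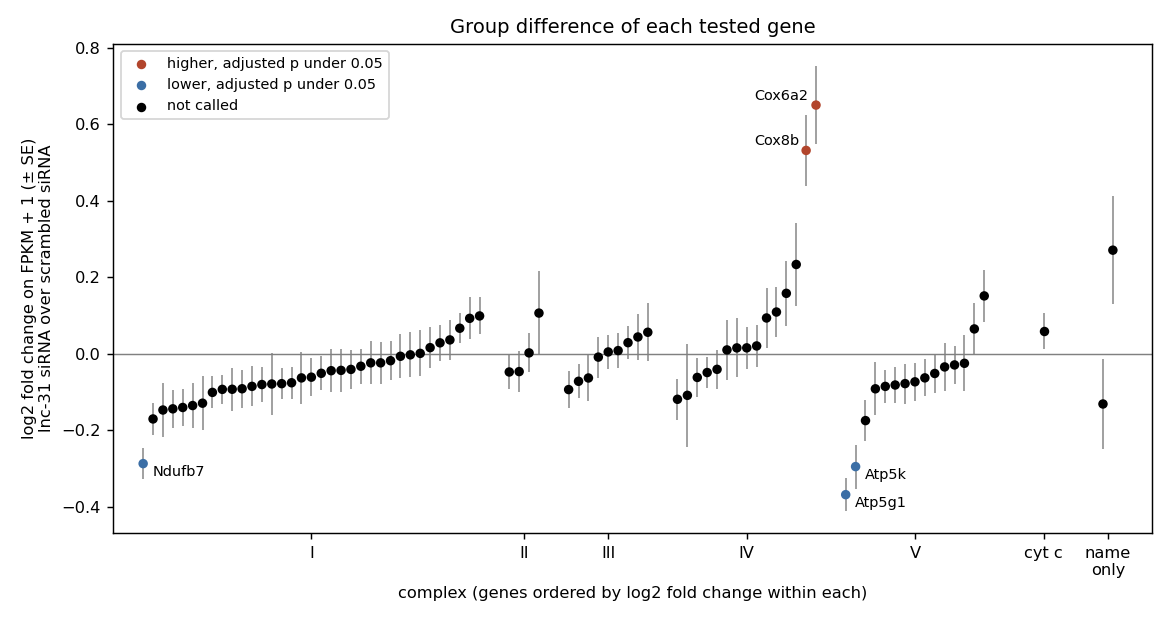
Log2 fold change of lnc-31 siRNA over scrambled siRNA on FPKM + 1, with its standard error from limma, for the 81 tested genes, ordered within complexes; coloured points have an adjusted p under 0.05. Most points lie between -0.2 and 0.2. Of the called genes, Cox6a2 (0.65) and Cox8b (0.53) stand above, and Atp5g1 (-0.37), Atp5k (-0.29) and Ndufb7 (-0.29) below. Atp5sl (0.27) and Cox5a (0.23), which were not called, also stand above.

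Complexes II and III had no called gene by limma, against 12.4% of all tested rows. None of their 13 genes had an unadjusted p under 0.05, against 30.9% of all tested rows. In succinate dehydrogenase, which also belongs to the citric acid cycle, the iron-sulphur subunit gene Sdhb was at 131 and 129 FPKM, against 128 and 140.1 FPKM (log2 fold change -0.05, SE 0.053), and the membrane anchor Sdhd at 188 and 197 FPKM, against 196 and 202 FPKM (-0.05, SE 0.045). In complex III Uqcr10 had the lowest value, at 420.5 and 397 FPKM, against 431 and 441 FPKM (-0.09, SE 0.049), and its groups did not overlap. Uqcrh, the hinge protein, was at 516 and 549.7 FPKM, against 537 and 576 FPKM (-0.06, SE 0.059). Cyc1, the heme subunit cytochrome c1, was at 298 and 331 FPKM, against 308 and 300.04 FPKM (0.04, SE 0.061). Cycs, the soluble cytochrome c that also takes part in apoptosis, was at 123 and 129.9 FPKM, against 119 and 123 FPKM (0.06, SE 0.046). Atp5sl, which is only named like a subunit, had 5.33 and 6.94 FPKM, against 4.34 and 5.46 FPKM (0.27, SE 0.14), and its groups overlapped.

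For most of these genes the difference between libraries of at least 1 group was as large as the group difference. Of the 81 tested genes, 67 were higher in lnc-31 siRNA 2 than in lnc-31 siRNA 1 (median difference 0.07 on the log2(FPKM + 1) scale), and 66 were higher in scrambled siRNA 2 than in scrambled siRNA 1 (median 0.06). Over all tested rows these differences had medians of 0.04 each, with 66.1% and 68.4% of rows above 0. The group difference exceeded both replicate differences in 26 of 81 genes (32.1%), against 48.6% of all rows, and 21 of the 26 were lower under the lnc-31 siRNA label. A minority moved the other way: 15 genes were lower in scrambled siRNA 2 than in scrambled siRNA 1, and 14 of these were higher in lnc-31 siRNA 2 than in lnc-31 siRNA 1. They included Cox5a (difference 0.33 in the lnc-31 siRNA pair and -0.09 in the scrambled siRNA pair), Cox8a (0.10 and -0.22), Cox5b (0.12 and -0.19), Atp5d (0.10 and -0.16) and Atp5b (0.12 and -0.08). These names were chosen after their values were seen. The summed level of the 84 genes was 19104 and 20168 FPKM in the libraries labelled lnc-31 siRNA and 19714 and 20337 FPKM with scrambled siRNA. As a share of the FPKM of rows that never exceeded 10000 it was 3.40% and 3.48%, against 3.43% and 3.44%.

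**Figure D5:**
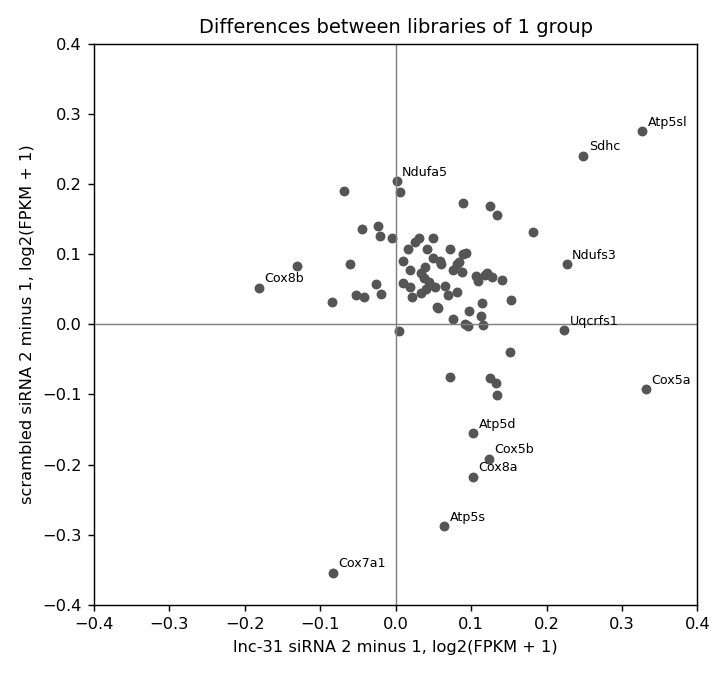
Difference between the libraries of a group on the log2(FPKM + 1) scale for the 81 tested genes, lnc-31 siRNA 2 minus 1 on the x axis and scrambled siRNA 2 minus 1 on the y axis. Most points lie in the upper right, where library 2 is higher in both groups (53 genes), and 14 lie in the lower right, among them Cox5a, Cox5b, Cox8a and Atp5d.

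Related genes were read in the same fit. The mitochondrially encoded subunits were given by 9 rows that hold 12 of their 13 genes. None of the 9 was called by limma, and the median log2 fold change was -0.16. An unadjusted p under 0.05 was seen in 2 of the 9, beside 30.9% of all tested rows. The lowest p-values belonged to mt-Nd6 (2153 and 1961 FPKM, against 2328 and 2564 FPKM, limma adjusted p = 0.11), mt-Nd5 (adjusted p = 0.14) and mt-Co2 (0.19). The row of mt-Nd2 was at 3253 and 2876 FPKM, against 3401 FPKM in scrambled siRNA 1 and 395110 FPKM in scrambled siRNA 2, and without scrambled siRNA 1 it was the 1 row called lower. Of 44 tested assembly factors of the complexes 1 rose and 6 fell. Called were 15.9%, against 12.4% of all tested rows, and called lower 13.6%, against 6.78%. Uqcc1, a complex III assembly factor, rose to 31.8 and 30.3 FPKM, against 22.6 and 24.0 FPKM with scrambled siRNA (log2 fold change 0.40, limma adjusted p = 0.013). Coa5 and Cox20, which act in complex IV assembly, fell: Coa5 was at 26.6 and 27.8 FPKM, against 37.9 and 38.5 FPKM (-0.47, adjusted p = 0.0070), and Cox20 at 33.9 and 37.5 FPKM, against 46.1 and 49.7 FPKM (-0.41, adjusted p = 0.020). The list had a median of -0.04, which was -0.09 with lnc-31 siRNA 2 left out and -0.01 with lnc-31 siRNA 1 left out. Of the fits with a library left out, Uqcc1 was called in the one that omitted lnc-31 siRNA 2. Assembly factors called lower then numbered 2 when lnc-31 siRNA 2 was omitted and 1 when any other library was.

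Of 18 genes of pyruvate oxidation and the citric acid cycle 3 fell and none rose (16.7% called, all lower, against 12.4% of all tested rows called and 6.78% called lower, with a median of -0.06). Sucla2 and Suclg2, subunits of succinate-CoA ligase, were at 46.0 and 48.4 FPKM, against 57.4 and 56.5 FPKM (-0.27, limma adjusted p = 0.022), and at 47.2 and 46.0 FPKM, against 54.7 and 52.5 FPKM (-0.20, adjusted p = 0.042). Ogdh, of the 2-oxoglutarate dehydrogenase complex, was at 61.5 and 63.3 FPKM, against 71.3 and 71.3 FPKM (-0.19, adjusted p = 0.038). None of the 3 was called with any 1 library left out. Of 14 tested regulators of mitochondrial biogenesis limma called none, and their median was 0.01. The sign of that median turned with 1 library left out, from -0.04 (without lnc-31 siRNA 2) to 0.06 (without lnc-31 siRNA 1). At an unadjusted p under 0.05 stood 4 of the 14, beside 30.9% of all tested rows. Tfb2m, a mitochondrial transcription factor, was at 13.0 and 11.9 FPKM, against 14.2 and 14.8 FPKM (-0.21, limma adjusted p = 0.085), and the corepressor Nrip1 at 5.52 and 5.97 FPKM, against 4.77 and 4.77 FPKM (0.23, adjusted p = 0.0896). Nrf1 and Gabpa, whose products bind the letters searched in the promoters, were at 20.5 and 20.1 FPKM, against 22.2 and 21.7 FPKM (-0.10, adjusted p = 0.19), and at 34.4 and 36.1 FPKM, against 32.4 and 32.2 FPKM (0.12, adjusted p = 0.13). The coactivator gene Ppargc1a had a mean under 1 FPKM (0.464 and 0.221, against 0.363 and 0.339 FPKM) and was not tested. None of 4 further subunit or associated genes with other names (Ndufab1, Atpif1, Usmg5 and Minos1) was called by limma, and 0 of the 4 had an unadjusted p under 0.05.

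The pull-down set lnc-31 probes beside lacZ probes, and it had 1 library per probe set and no test. None of the 84 genes had a peak in its gene body, with lnc-31 probes or with lacZ probes. Over all 12673 matched rows a peak lay in 226 (1.78%) with lnc-31 probes and in 218 (1.72%) with lacZ probes. The lists hold only called peaks, so recovery under the calling threshold is not seen.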

How the data were processed

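The knockdown table holds FPKM values deposited by the authors, and per the submitters' processing notes the tools were TopHat2, Bowtie2, BWA, Cuffdiff, CASAVA and Trimmomatic, with build mm10 and without versions or order. The pull-down peak lists hold, in column 7, a value that was read as the authors' deposited p-value from its range alone. No source used here names the peak caller. The input library is not analysed here. FPKM keeps no depth, so no counting interval is given. Sample columns that match no label numbered 0.

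Rows averaging at least 1 FPKM (11500) were tested on log2(FPKM + 1) with limma 3.58.1 in R 4.3.3 (trended prior variance, two-sided, Benjamini-Hochberg over all tested rows), without a replicate block. A run of the fit on simulated data used independent noise and larger changes than most members had. It therefore says nothing of differences that small. Row names that merge genes (Adck2 with Ndufb2, Atp5o with Donson, and Gm20538 and Sec31b with Ndufb8) were kept, so those 3 values may include the other genes. All 84 names matched RefSeq, 3 of them by synonym. Peaks were assigned to gene bodies at 1 base of overlap. Tables and plots were made in Python 3.11.15 (numpy 2.4.6, pandas 2.3.3, matplotlib 3.10.9).

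Members, gene lists and tests were chosen with earlier results of these data known. Genes were named by a rule: all called genes, the 6 highest and 6 lowest log2 fold changes, the 2 most abundant of each complex, isoform pairs, Cycs and Cyc1, and up to 3 genes of each related list by smallest p. Other names were chosen after their values were seen. Alternatives were other pseudocounts (0.1 and 0.5), filters, scalings, a constant prior, the replicate block and each library left out.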

Additional observations from a re-analysis of the deposited data

How the results depend on the processing

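Called subunit genes numbered 2 higher and 3 lower. Medians given below for the subunit genes also cover the tested Atp5s and Atp5sl, which are only named like subunits. With a mean of 5 FPKM or more required, 0 were higher, because Cox6a2 and Cox8b were then not tested. That filter called 4 lower, adding Ndufb10. With quantile normalization 5 were lower, and with median of ratios scaling also 5, both adding Ndufb5 and Atp5c1. With 1 library left out, 0 to 1 were higher and 0 to 1 lower, the count over all rows was 260 to 491 against 1429, and the median log2 fold change of the subunit genes ran from -0.0703 to 0.00117 against -0.04. When 1 library is left out, the lone library of its group is assumed to vary like the others. The call of Atp5k was also lost with a constant prior variance (adjusted p = 0.053). Isoform shares are ratios within a library, which median of ratios scaling cannot move, and with 2 libraries per group leaving 1 out says nothing of their stability. For the peaks the alternatives were stricter: at least 0.5 of a peak inside the gene, or only values under 0.001. A count of 0 cannot rise under a stricter rule, so they say nothing of its stability.

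The replicate block called 2 subunit genes higher and 4 lower, adding Atp5c1. The labels do not say that a number marks a shared batch, and deviations of the libraries numbered 1 correlated at -0.094 between groups over 11500 rows, so the numbers were not taken as pairs. Leaving out rows listed at 0 in any library, an alternative chosen after seeing the data, called 4 lower, also adding Ndufb10. The median log2 fold change of all rows was -0.0067 in the main fit, -0.0061 with quantile normalization and -0.0025 with median of ratios scaling. In the same order, that of the 81 tested genes followed here was -0.043, -0.030 and -0.039, with 53, 49 and 52 genes below 0. With 2 libraries per group and unknown depth, differences of the size seen for most members could not be told from replicate spread.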
